A study of Mus musculus with 6 samples.

Results

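Txnip, which encodes thioredoxin-interacting protein, gave a lower signal in ovaries of SeBP1 knockout mice than in wild-type ovaries. It is described here with its arrestin-domain relatives Arrdc1, Arrdc2, Arrdc3 and Arrdc4, and with Mlx, Mlxip and Mlxipl, the glucose-sensing transcription factors that act upstream of it. These 8 genes were found by their symbols among the 31791 gene names on the array, and they had 13 of its 39429 probes. Txnip was chosen by its measured knockout-minus-wild-type difference in these arrays, so its values are a description without a test, whereas its relatives entered by family name and the Mlx factors by their place in the pathway. The samples were total RNA of ovaries from 20-week-old females labelled as C57BL/6J, 3 of them SeBP1 knockout (SeBP1 is the product of Selenbp1) and 3 wild type. Each was hybridised to an Agilent 1-colour array of 60-base probes. The labels give neither the deleted piece of the gene nor how the line was bred, nor whether the 3 samples of a genotype came from 3 animals, so an adjusted p measures the spread between these samples. Whole ovary holds many cell types, and fewer cells of a type and less RNA per cell cannot be told apart.

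Txnip is an alpha-arrestin, a scaffold protein that binds reduced thioredoxin and that helps to draw glucose transporters from the cell surface, so that cells rich in it take up less glucose. Its transcription follows glucose: MondoA (Mlxip) or ChREBP (Mlxipl) pairs with Mlx when glucose phosphates build up and binds carbohydrate response elements, which are made of a pair of E-box-like motifs. The Arrdc proteins share the arrestin fold and carry motifs that recruit Nedd4-family ubiquitin ligases, and Arrdc4 is, like Txnip, a known target of MondoA. In the ovary, glucose is used mainly by granulosa and luteal cells, and granulosa cells pass pyruvate on to the oocyte.

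The promoters of Txnip and Arrdc4, the pair known as Mondo targets, are printed from the RefSeq promoter table (GRCm38.p6). The Mlx factors are known to act through paired E-box-like motifs. In these sequences Txnip held a match to the paired motif searched, while Arrdc4 held a single E box and no such pair. All 8 genes had an entry in that table. Each sequence is the 250 bases before the annotated start, read 5′ to 3′ on the gene's own strand, with chr3:96557707-96557956 on the plus strand for Txnip and chr7:68749239-68749488 on the minus strand for Arrdc4. Capitals mark the paired motif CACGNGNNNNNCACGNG, the forkhead motif GTAAACA and CCAAT boxes (CCAAT, or ATTGG on the other strand) in Txnip, and the E box CACGTG and CCAAT boxes in Arrdc4.
Txnip: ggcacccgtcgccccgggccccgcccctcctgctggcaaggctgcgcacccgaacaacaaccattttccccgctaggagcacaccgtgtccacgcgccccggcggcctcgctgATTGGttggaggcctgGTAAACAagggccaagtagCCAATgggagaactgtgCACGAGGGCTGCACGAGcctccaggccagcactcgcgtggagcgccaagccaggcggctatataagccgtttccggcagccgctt
Arrdc4: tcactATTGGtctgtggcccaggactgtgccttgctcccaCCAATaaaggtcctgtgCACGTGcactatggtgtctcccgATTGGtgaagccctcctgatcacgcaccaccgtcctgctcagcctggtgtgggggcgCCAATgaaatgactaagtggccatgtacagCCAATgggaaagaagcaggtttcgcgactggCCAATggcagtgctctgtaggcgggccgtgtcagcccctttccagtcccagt

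The paired motif was searched on both strands of the 300-base windows around all 32851 starts in the table, and 16 of them (0.0487%) held it. Among the 8 genes it was found in Txnip, from 85 to 69 bases before the start, where it reads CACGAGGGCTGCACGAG. The pattern was set by hand, so its match in Txnip and its rarity are a description and not a test. The forkhead motif, in 3.65% of all windows, was likewise found in Txnip, 121 to 115 bases before the start. The E box can overlap the paired motif, was in 7.15% of windows, and was found in Arrdc4, Mlxipl and Mlx at 193, 98 and 40 bases before the start. CCAAT boxes were in 37.4% of windows and occurred 6 times in Arrdc4 and 2 times in Txnip. The carbohydrate response element consensus, searched by name, was in 0.119% of windows and in none of these genes. These matches describe letters in a window and are not binding measurements.

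The arrays were first checked against their labels. Selenbp1 (probe on chromosome 3 at 94748621 to 94748680 in mm9, the build of the array files) had a log2 signal of -0.11, 0.02 and -0.37 in knockout replicates 1, 2 and 3, against 2.68, 2.53 and 2.59 in wild-type replicates 1, 2 and 3. All signals here are on this scale, log2 of the processed intensity relative to the 75th percentile of the same array. Selenbp1 was 6.72-fold lower in the knockout arrays (log2 difference -2.75, SE 0.13, limma adjusted p = 0.0104), and it was the only 1 of 24415 probes tested that passed an adjusted p of 0.05 (0.00410%), although it missed that threshold under 8 of 17 alternatives. Nnt, a mitochondrial transhydrogenase gene that is known to be truncated in C57BL/6J mice, had 2.58, 2.45 and 2.28 in the knockout arrays and 1.21, 1.15 and 0.99 in the wild-type arrays. It did not pass (adjusted p = 0.336), and the part of strain background in the results below was not tested. Markers of the ovary were present, with 8 of 8 granulosa, 7 of 7 corpus luteum and 9 of 9 oocyte marker genes above background on all 6 arrays. The arrays lay on 2 slides, wild-type replicates 1 and 2 on the first and wild-type replicate 3 with all 3 knockout samples on the second, so differences of the 8 genes are also given against wild-type replicate 3 alone, as are those of several listed genes. With the slide as a fixed block, differences also rest on wild-type replicate 3 alone, because the first slide holds no knockout array. Wild-type replicate 3 had the smallest share of spots well above background, 61.6% where the highest had 69.3%. It also had the least even repeated spots, with a median coefficient of variation of 5.42% and 2.04 to 2.68% on the others.

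Txnip was measured by 2 probes that do not overlap, and both read lower in every knockout array than in any wild-type array. Of all probes, 4.69% showed this order, and at Txnip it follows in part from the choice of the gene by its difference. Neither Txnip probe passed the adjusted threshold. The brighter probe, at 96365147 to 96365206 on chromosome 3 (mm9), gave 3.15, 3.19 and 3.07 in the knockout arrays, against 3.96, 3.66 and 3.80 in the wild-type arrays. The knockout arrays lay close together, and all were below the lowest wild-type array, replicate 2. The means were 3.14 ± 0.06 in knockout and 3.81 ± 0.15 in wild type (SD, n = 3 each), a log2 difference of -0.67 (SE 0.12), or 1.59-fold lower in knockout. Against wild-type replicate 3, the array on the same slide, the difference was also -0.67.

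The dimmer Txnip probe starts 941 bases before the brighter one, at chr3:96364206-96364265 in mm9. The sequence of this dimmer probe is printed because it is another reading of the same transcript, in the same samples and on the same arrays.
Txnip dimmer probe: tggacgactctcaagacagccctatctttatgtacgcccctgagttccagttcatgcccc
It gave 0.71, 0.59 and 0.61 in the knockout arrays, against 1.53, 1.19 and 0.99 in the wild-type arrays. The groups did not overlap here either, but wild-type replicate 3 came closest to the knockout arrays. The difference was -0.60 (SE 0.16), 1.51-fold lower in knockout, and against wild-type replicate 3 alone it was -0.35. Within each array the brighter probe exceeded the dimmer by 2.44, 2.59 and 2.46 in the knockout arrays and by 2.43, 2.47 and 2.81 in the wild-type arrays, so the probes parted most on wild-type replicate 3. Over 17 alternative treatments of the data the brighter probe's difference stayed between -0.75 and -0.60 and the dimmer probe's between -0.72 and -0.35.

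**Figure D1:**
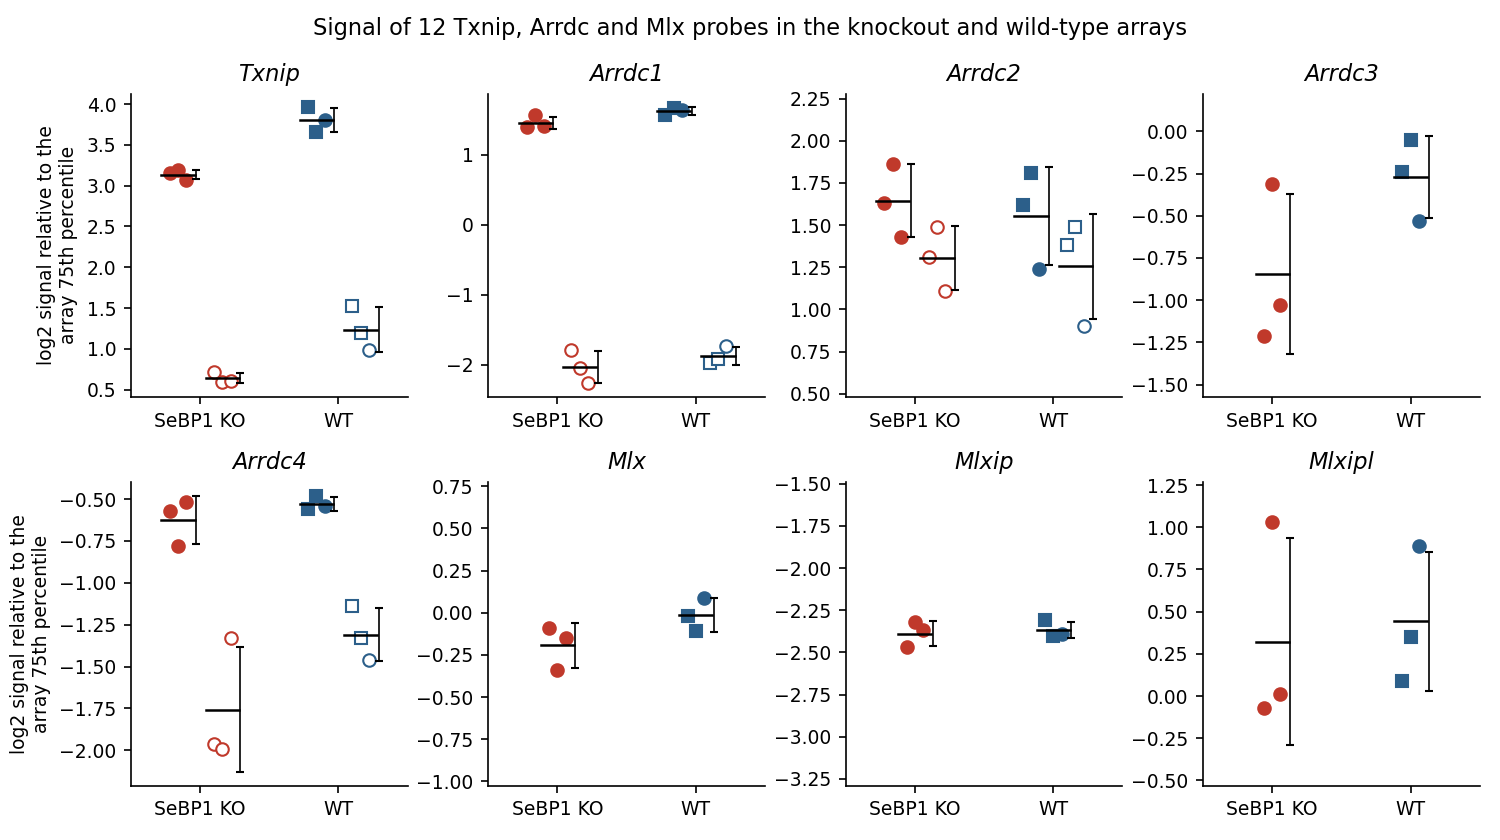
Log2 signal relative to the array's 75th percentile (y axis) for each of the 8 genes, in SeBP1 knockout (red, left) and wild type (blue, right). Each point is an array, square for the first slide and circle for the second, filled for a gene's brighter probe and open for its dimmer one, with the mean as a line and the SD as a bar. The knockout points lie wholly below the wild-type points at both Txnip probes, and at Arrdc3 knockout replicate 2 (-0.31) lies among the wild-type arrays.

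None of the relatives or Mlx factors passed the test across all probes. Their 10 tested probes all had a limma adjusted p of 1.00 after Benjamini-Hochberg adjustment over 24415 probes, and none had an unadjusted p under 0.05, which 3.95% of all probes had (1.74% with knockout lower). Of the 7 relatives' probes 5 were lower and 2 higher in knockout, with a median log2 difference of -0.16. The 3 tested Mlx factor probes were all lower, with a median of -0.12. Over all probes 54.3% were lower, the median was -0.017 and the differences ran from a lower quartile of -0.12 to an upper quartile of 0.10. The groups failed to overlap at 1 of the relatives' 7 probes, the brighter Arrdc1 probe, with knockout lower, and at 4.69% of all probes in that direction.

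Arrdc3, an adaptor in the ubiquitination and trafficking of beta-adrenergic receptors, had the largest difference of the relatives. Its probe, on chromosome 13 at 81034981 to 81035040, gave -1.21, -0.31 and -1.03 in the knockout arrays, against -0.24, -0.05 and -0.53 in the wild-type arrays. Knockout replicate 2 lay among the wild-type arrays and the other two lay below them. The means were -0.85 ± 0.47 in knockout and -0.27 ± 0.24 in wild type (SD, n = 3 each), and the difference was -0.58 (SE 0.26). It was -0.32 against wild-type replicate 3 alone and -0.85 without knockout replicate 2, and the smallest adjusted p under any alternative was 0.198, with array quality weights.

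Arrdc4, the relative that is itself a Mondo target, had 2 probes that the array files assign to different transcripts. The brighter, on chromosome 7 at 75886496 to 75886555, gave -0.57, -0.78 and -0.52 in the knockout arrays and -0.56, -0.48 and -0.54 in the wild-type arrays. These ranges overlapped and the difference was -0.09 (SE 0.11), or -0.08 against wild-type replicate 3 alone. The dimmer, at 75881905 to 75881964, gave -1.96, -1.99 and -1.33 in the knockout arrays, against -1.14, -1.33 and -1.46 in the wild-type arrays. Knockout replicate 3 lay among the wild-type arrays, and the difference was -0.45 (SE 0.21), or -0.30 against wild-type replicate 3 alone.

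The dimmer Arrdc4 probe was spotted 10 times on each array, which shows how well a single array measured it. The SD over its spots was 0.053, 0.036 and 0.017 in the knockout arrays and 0.038, 0.054 and 0.090 in the wild-type arrays. The SD between the 3 knockout arrays was 0.37, which holds differences between samples as well as spot error. The Arrdc4 probes differed from each other in their knockout-minus-wild-type value by 0.35, a difference between probes that was not tested.

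**Figure D2:**
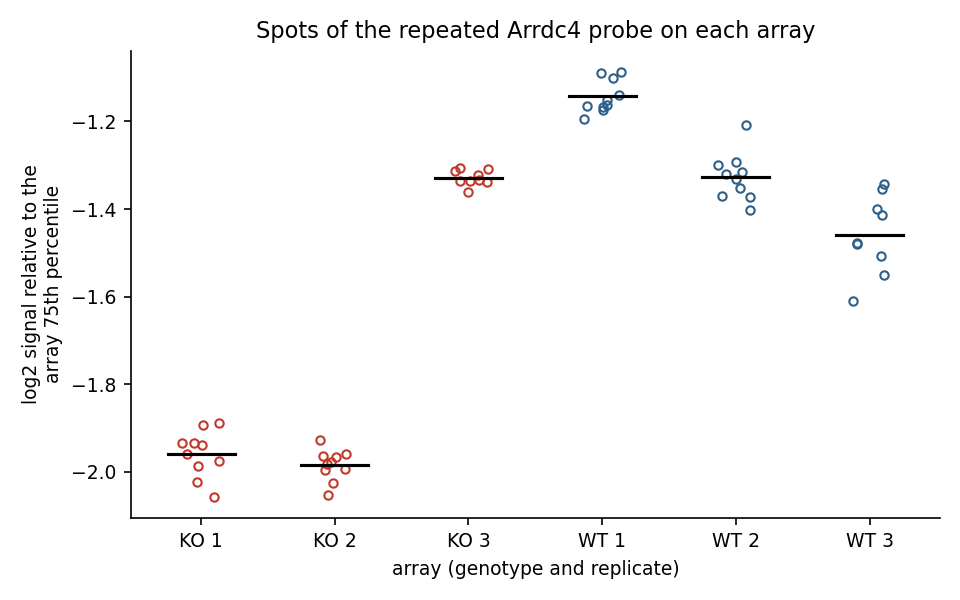
Log2 signal relative to the array's 75th percentile (y axis) of every usable spot of the repeated Arrdc4 probe on each array (x axis, SeBP1 knockout left, wild type right), with a line at the array's mean. Spots cluster tightly within an array; knockout replicates 1 and 2 sit near -2, and knockout replicate 3 (-1.33) sits level with wild-type replicate 2 (-1.33).

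Arrdc1, which in human cells drives the budding of vesicles from the plasma membrane, showed small differences at both probes. The brighter, on chromosome 2 at 24780875 to 24780934, gave 1.40, 1.56 and 1.41 in the knockout arrays, against 1.56, 1.67 and 1.63 in the wild-type arrays. Knockout replicate 2 and wild-type replicate 1 were equal to the second decimal, and the difference was -0.17 (SE 0.10). The dimmer, at 24782434 to 24782493, gave -1.79, -2.05 and -2.26 in the knockout arrays and -1.97, -1.91 and -1.73 in the wild-type arrays, with overlapping groups and a difference of -0.16 (SE 0.15). Against wild-type replicate 3 alone the probes differed by -0.18 and -0.30.

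Arrdc2 was the 1 relative whose probes were not lower in knockout. Its probes, on chromosome 8 at 73359065 to 73359124 and 73359054 to 73359113, share 49 of their 60 bases and are nearly the same measurement. The brighter gave 1.63, 1.86 and 1.43 in the knockout arrays and 1.62, 1.81 and 1.24 in the wild-type arrays. The dimmer gave 1.31, 1.49 and 1.11 in the knockout arrays and 1.38, 1.49 and 0.90 in the wild-type arrays. The groups overlapped at both, with differences of 0.09 and 0.05 (SE 0.19 each). Leaving out wild-type replicate 3 turned them to -0.07 and -0.13, leaving out knockout replicate 2 turned them to -0.02 and -0.04, and against wild-type replicate 3 alone they were 0.41 and 0.40.

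Mlx, the shared partner of both Mondo proteins, was measured on chromosome 11 at 100952426 to 100952485. It gave -0.09, -0.34 and -0.15 in the knockout arrays and -0.02, -0.11 and 0.09 in the wild-type arrays. Knockout replicate 1 lay above wild-type replicate 2, so the groups overlapped, and the difference was -0.18 (SE 0.12), or -0.29 against wild-type replicate 3 alone.

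Mlxip, the gene of MondoA, had nearly equal signals in the genotypes at its brighter probe (chromosome 5, 123907398 to 123907457). It gave -2.47, -2.32 and -2.37 in the knockout arrays and -2.31, -2.40 and -2.39 in the wild-type arrays, with overlapping groups. The difference was -0.02 (SE 0.10), or 0.0024 against wild-type replicate 3 alone. Its dimmer probe, at 123896216 to 123896275, was not tested: it was well above background on 2 of 3 knockout arrays and on 0 of 3 wild-type arrays, with intensities of 17.6, 34.4 and 27.6 in the knockout arrays and 15.6, 23.8 and 18.4 in the wild-type arrays. The intensity ranges overlapped, and no fold is given because the probe was not measured above background on every knockout array.

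Mlxipl, the gene of ChREBP, varied more between arrays of a genotype than between genotypes. Its probe, on chromosome 5 at 135613705 to 135613764, gave -0.07, 1.03 and 0.01 in the knockout arrays and 0.09, 0.35 and 0.89 in the wild-type arrays. Knockout replicate 2 was the highest of all 6 arrays and knockout replicate 1 the lowest. The difference was -0.12 (SE 0.35), and it was -0.47 without knockout replicate 2 and -0.57 against wild-type replicate 3 alone.

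**Figure D3:**
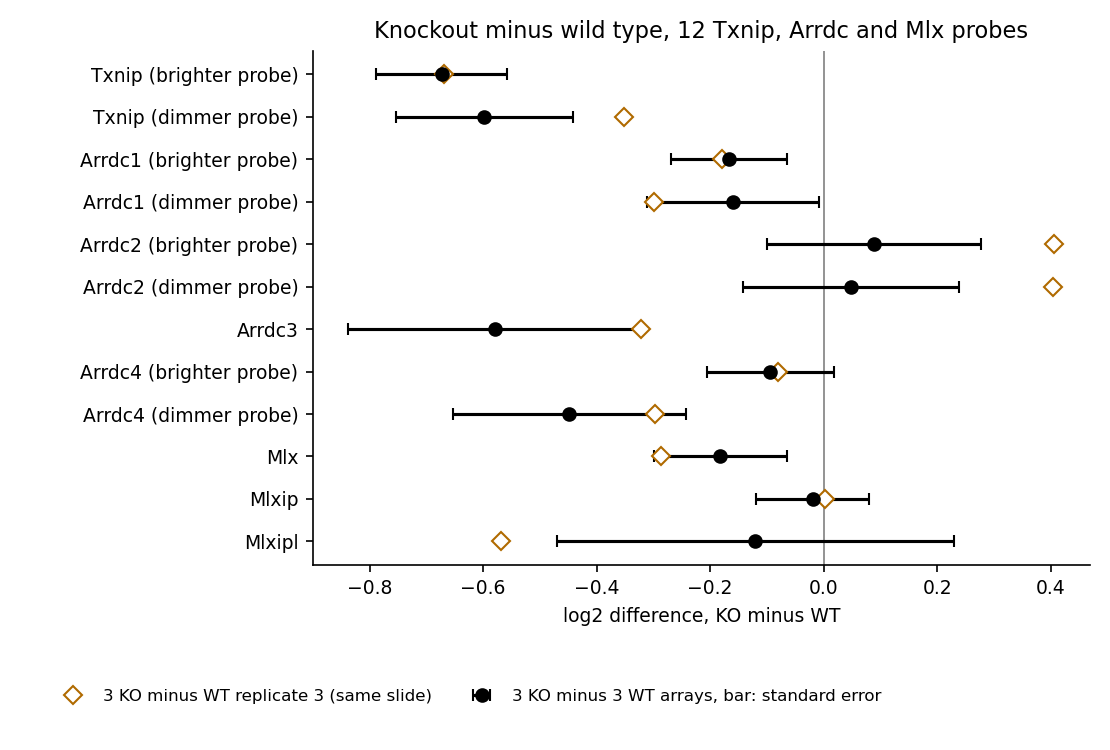
Log2 difference, SeBP1 knockout minus wild type (x axis), for the 12 tested probes of the 8 genes (y axis). Black points are the limma differences over 3 knockout and 3 wild-type arrays with their standard errors, and open diamonds are the 3 knockout arrays against wild-type replicate 3, which shared their slide. The Txnip probes (-0.67 and -0.60) lie farthest to the left, followed by Arrdc3 (-0.58) and the dimmer Arrdc4 probe (-0.45), and the diamonds of Arrdc2 lie near 0.4.

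How far the other genes followed Txnip array by array was described by Pearson's r with its brighter probe over the 6 arrays, among 22921 probes well above background on all of them. The arrays share their genotype groups and slides, so r mixes these with any other likeness. The dimmer Txnip probe had r of 0.923, which follows in part from the choice of Txnip by its difference in these arrays. The Arrdc1 probes had 0.745 and 0.466, Mlx had 0.673, Arrdc3 had 0.670 and the dimmer Arrdc4 probe had 0.649. For the relatives and Mlx, the share of probes with as high an r was 3.70% and 17.2% for Arrdc1, 6.26% for Mlx, 6.35% for Arrdc3 and 7.26% for Arrdc4. The brighter Arrdc4 probe (0.345), Mlxip (0.305), Mlxipl (0.144) and Arrdc2 (-0.091 and -0.20) followed it less. By a rule that takes 1 probe a gene, the genes most like Txnip were Tmem69, a transmembrane protein gene (0.995), Syne1, a nuclear envelope spectrin-repeat protein gene (0.994), Adgrv1, an adhesion receptor gene (0.988), Eif1b, a translation initiation factor gene (0.982), and Selenbp1 itself (0.977). Their log2 differences were -0.28, -0.35, -0.32, -0.20 and -2.75 in that order, and all but Selenbp1 had an adjusted p of 1.00.

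Txnip lies on the same chromosome as the deleted gene, its nearer probe 1.62 Mb from that of Selenbp1. The 88 tested probes between them, for 73 genes, had a median log2 difference of -0.034, with 36 higher and 52 lower in knockout. None passed the adjusted threshold, 2 (2.27%) had an unadjusted p under 0.05, and the groups did not overlap at 3 (3.41%), against 8.66% of all probes in either direction.

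The genes around Txnip and the Mlx factors were read from 8 lists, and no listed gene passed the adjusted threshold, by limma in the main analysis or under any of the 17 alternatives. Of the Mondo and ChREBP target genes, enzymes and regulators that respond to sugar, 21 of 23 were tested (Pklr and G6pc were too dim), 16 were lower and 5 higher in knockout, and the median log2 difference was -0.26, beside -0.017 over all probes. With the slide as a block the median was -0.23. Mlxipl is itself on this list, and Hk2 is also on that of the glycolysis enzymes. The list's median signal by array was -0.064, -0.25 and -0.11 in knockout and 0.21, -0.060 and 0.25 in wild type, each gene taken relative to its own mean, and wild-type replicate 2 lay next to the knockout arrays.

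Scd1, the desaturase that makes monounsaturated fatty acids, gave -1.01, -1.97 and -1.58 in the knockout arrays and 0.39, -1.26 and 0.35 in the wild-type arrays, with a difference of -1.35 (SE 0.49). Wild-type replicate 2 lay among the knockout arrays. Dnajb9, a co-chaperone of the endoplasmic reticulum, gave 0.49, 0.38 and 0.49 in the knockout arrays, against 0.86, 0.99 and 0.69 in the wild-type arrays, with a difference of -0.40 (SE 0.12), or -0.23 against wild-type replicate 3 alone, and no overlap. The groups also failed to overlap for Khk, the fructose-phosphorylating enzyme, a gene singled out after its values were seen, with a difference of -0.15. That makes 2 of 21 targets, near the 8.66% of all probes.

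Many of these targets are also fat cell genes, and some adipocyte markers varied widely between the arrays. The summed signal of 6 tested adipocyte markers was 5.85, 3.95 and 7.19 times the 75th percentile in the knockout arrays and 22.5, 6.18 and 5.14 times in the wild-type arrays. Wild-type replicate 1 stood apart, through Fabp4, a fatty acid carrier, at 2.20 where the other 5 arrays lay between -0.77 and -0.47, and through the secreted proteins Cfd and Retn, genes singled out after their values were seen. The other tested markers did not set it apart: Plin1, a lipid droplet protein gene, was at 0.23 there and 0.10 in knockout replicate 1, Pparg, a fat cell transcription factor gene, at 1.92 there and 2.44 in knockout replicate 3, and Lipe, a lipase gene, at -3.25 there and -3.06 in knockout replicate 1. Of 10 listed markers 4 were above background on all arrays, and Adipoq, Lep, Cidec and Ucp1 were too dim to test. Without wild-type replicate 1 the median of the Mondo targets was -0.22 with 15 of 21 lower, and without wild-type replicate 3 it was -0.12 with 15 lower. The part of fat cells in the values of Txnip and the targets was not tested.

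**Figure D4:**
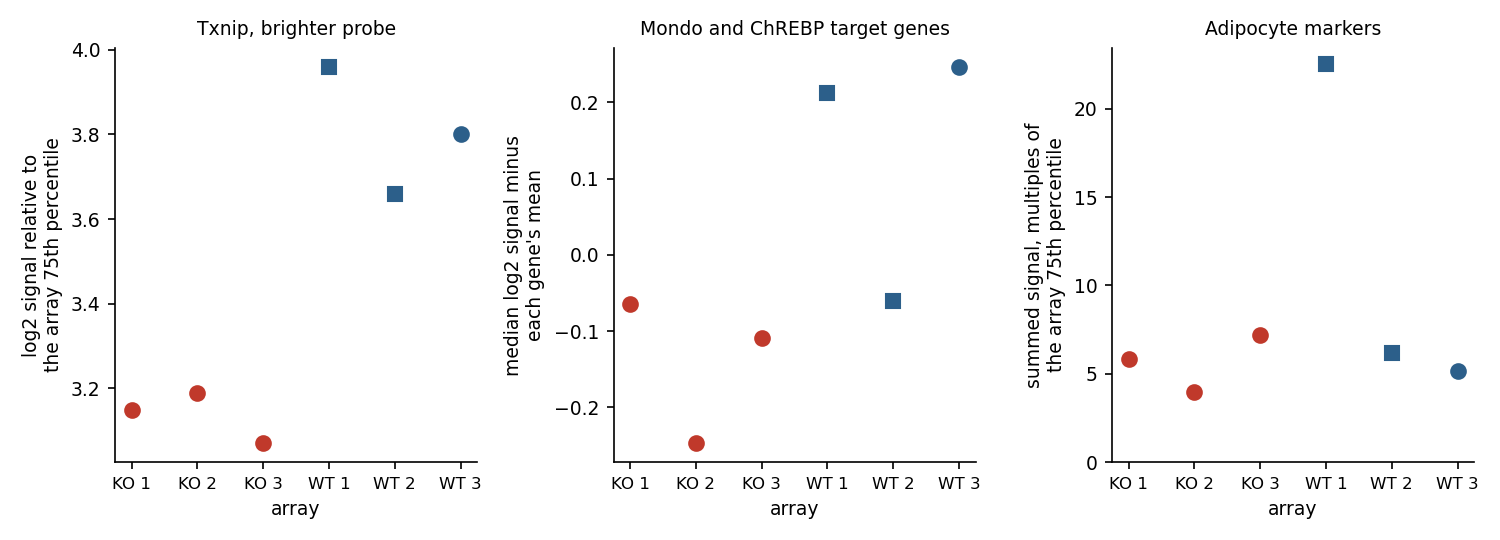
The brighter Txnip probe, the median Mondo and ChREBP target and the summed adipocyte marker signal (y axes, log2 for the first and second, multiples of the array's 75th percentile for the third) on each array (x axis, SeBP1 knockout left, wild type right). Wild-type replicate 1 stands alone in the adipocyte panel at 22.5, and in the Txnip panel all 3 wild-type arrays lie above all 3 knockout arrays.

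The list of Mlx network partners, Max and proteins that pair with Max or Mlx, gave 3 higher and 4 lower of 7 tested genes of 8 (Mxi1 was too dim). Its median of -0.087 turned to 0.045 with the slide as a block. Myc, the growth regulator that pairs with Max, gave 0.35, -0.04 and 0.00 in the knockout arrays, against 0.75, 0.73 and 0.90 in the wild-type arrays. The groups did not overlap, and the difference was -0.69 (SE 0.14), with an adjusted p of 1.00. Mga, another Max partner, was the only other gene of this list without overlap, at -0.24 (SE 0.12), which makes 2 of 7 genes beside 8.66% of all probes in either direction.

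The thioredoxin system and the glucose transporters, lists that include targets of the Txnip protein, were read at the level of RNA. Of 14 tested thioredoxin system genes 12 were lower. The median in the main analysis was -0.066, or -0.22 with the slide as a block. The groups overlapped for all genes of this list measured on 6 arrays. Txn1, which encodes thioredoxin and is named after its values were seen, lost its spots on wild-type replicates 1 and 2 as outliers and so has no wild-type spread: it gave 3.75, 3.80 and 3.96 in knockout and 4.07 in wild-type replicate 3. Txnrd2, the mitochondrial thioredoxin reductase, differed by -0.22 (SE 0.13) and Prdx3, a mitochondrial peroxiredoxin, by -0.24 (SE 0.15). Against wild-type replicate 3 alone they differed by -0.37 and -0.52. Glucose transporters were split, 4 of 9 tested genes higher and 5 lower, and their median of -0.032 became 0.27 with the slide as a block. Slc2a1, the widely expressed transporter that Txnip helps to remove from the surface, gave 0.89, 0.26 and 0.24 in the knockout arrays and 0.73, 0.66 and 0.58 in the wild-type arrays, with a difference of -0.19 (SE 0.19), or -0.12 against wild-type replicate 3 alone. Slc2a9, a urate transporter of the same family, differed by -0.32 (SE 0.22), or -0.59 against that array. Its signal lay near background, well above it on 2 of 3 knockout arrays, and Slc2a2 was too dim to test.

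Glycolysis enzymes, all 16 of them tested, had 6 higher and 10 lower with a median of -0.086. Aldoc, an aldolase, gave 1.59, 1.77 and 1.92 in the knockout arrays, against 1.96, 2.07 and 2.34 in the wild-type arrays. The groups came close without overlapping, and the difference was -0.36 (SE 0.15), or -0.58 against wild-type replicate 3 alone. Aldoa, the aldolase of muscle, also did not overlap, at -0.24 (SE 0.10) or -0.36 against that array, nor did Pgam1, a phosphoglycerate mutase, at -0.20, which was singled out after its values were seen, so that 3 of 16 enzymes did not overlap, beside 8.66% of all probes.

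The ubiquitin ligases and adaptors that alpha-arrestins recruit had 4 higher and 8 lower of 12 tested genes, with a median of -0.034 and no gene without overlap. Nedd4l differed by -0.27 (SE 0.20) and Wwp2 by 0.17 (SE 0.13), both of them ligases of the Nedd4 family, and Ndfip2 was too dim. Against wild-type replicate 3 alone Nedd4l was at 0.095 and Wwp2 at 0.26. Of the 7 other arrestin-fold genes tested, the beta-arrestins and retromer subunits among them, there were 2 higher and 5 lower, the median was -0.071 and there was again no gene without overlap. Sag, the arrestin of the retina, differed by -0.58 (SE 0.39) near background, above it on 2 of 3 knockout arrays, and Vps26a, a retromer subunit, by -0.11 (SE 0.10). These became -1.19 and -0.21 against wild-type replicate 3 alone. Arr3 and Arrdc5 were too dim to test.

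Genes that answer glucocorticoid and Foxo factors, which are further known regulators of Txnip, were mixed, with 7 higher and 9 lower of 16 tested and a median of -0.076 that turned to 0.13 with the slide as a block and to 0.075 without knockout replicate 2. The groups did not overlap for 2 of these 16 genes, Per1 and Ddit4, both higher in knockout, beside 8.66% of all probes in either direction. Per1, a clock gene, gave 1.80, 1.80 and 1.62 in the knockout arrays, against 1.39, 1.13 and 1.15 in the wild-type arrays, with a difference of 0.52 (SE 0.12). Ddit4, an inhibitor of the growth kinase mTORC1, gave 4.80, 4.66 and 5.26 in the knockout arrays, against 4.62, 4.21 and 4.18 in the wild-type arrays. The lowest knockout array was close to the highest wild-type array, and the difference was 0.57 (SE 0.20), with an adjusted p of 1.00 for both genes.

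**Figure D5:**
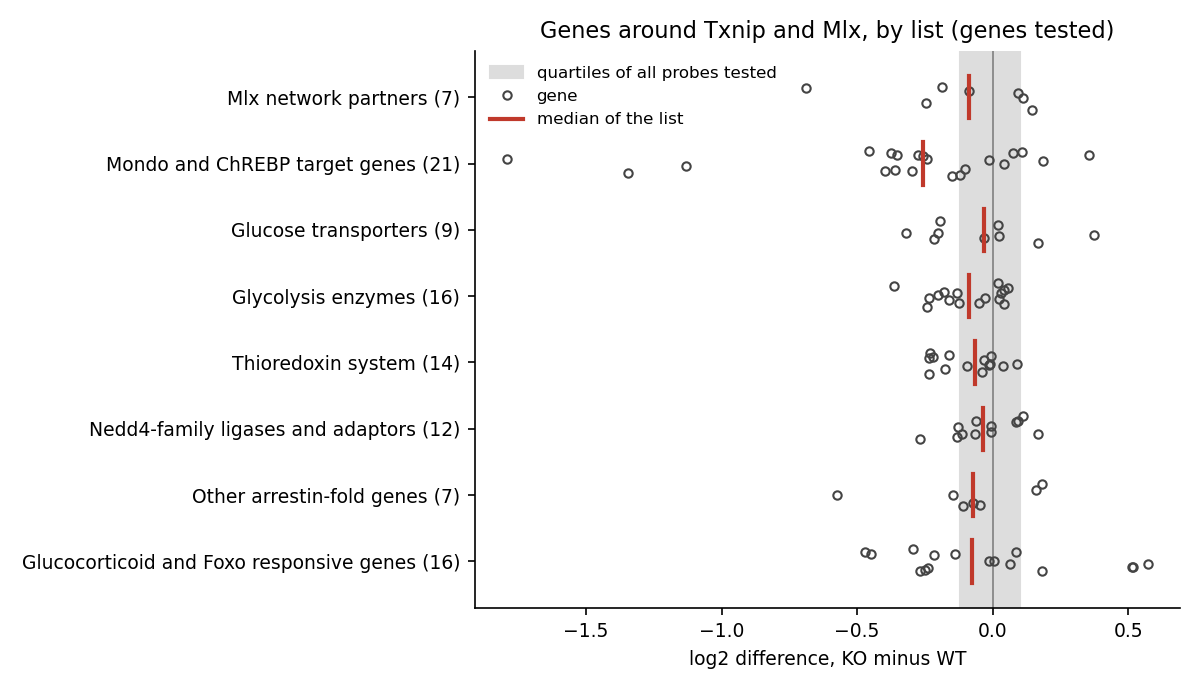
Log2 difference, SeBP1 knockout minus wild type (x axis), of every tested gene in the 8 lists (y axis, number tested in brackets). Each circle is a gene, red lines are list medians and the grey band spans the quartiles of all probes tested (-0.12 to 0.10); the Mondo and ChREBP targets have the lowest median (-0.26), outside the band, and the other medians lie inside it.

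Other cell types and handling also varied between arrays, and their part in the values above was not tested. The summed signal of corpus luteum markers ran from 21.4 to 118 times the 75th percentile in knockout, lowest in replicate 2, and from 79.5 to 137 in wild type. Red cell markers ran from 9.16 to 40.8 in knockout and from 5.01 to 9.43 in wild type. Genes that respond to handling of tissue ran from 27.0 to 48.2 in knockout and from 16.6 to 19.3 in wild type. Nr4a1, a nuclear receptor singled out after its values were seen, dominated the sums of the knockout arrays. Its values were 5.19, 4.74 and 4.13 in the knockout arrays and 2.59, 3.30 and 3.04 in the wild-type arrays. Nr4a1 was the only 1 of the 9 genes without overlap, beside 8.66% of all probes in either direction. The list's median signal relative to each gene's mean overlapped, at 0.84, -0.35 and -0.09 in knockout and -0.28, -0.08 and -0.30 in wild type. Granulosa markers ran from 180 to 285 in knockout and from 164 to 274 in wild type, and oocyte markers from 22.5 to 41.3 in knockout and from 22.8 to 42.5 in wild type. Theca and stroma markers ran from 41.3 to 61.5 in knockout and from 51.5 to 81.2 in wild type, and macrophage markers from 12.7 to 18.1 and from 13.0 to 14.8. Oviduct and epithelium markers ran from 21.5 to 33.6 in knockout and from 29.2 to 61.4 in wild type. The 61.4 was wild-type replicate 2, where Ovgp1 was at 4.83, against -1.66 and -1.72 in wild-type replicates 1 and 3. Agr2 was well above background on 0 of 3 knockout and 3 of 3 wild-type arrays. It was the only 1 of the 7 tested genes of that list without overlap, beside 8.66% of all probes. Its probe entered the test only through the wild-type arrays, so its lack of overlap follows in part from the background filter. Ovgp1 and Agr2 were singled out after their values were seen.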

How the data were processed

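Per the file headers, the scanner files were written by Agilent Feature Extraction (version 10.7.1.1) and hold linear 1-colour intensity of each spot, background-subtracted within each array and not normalized between arrays. A deposited table of the whole series holds intensity too, with all columns at a median of 119.8. It served as an alternative, and no source used here gives how it was made. Control spots and outlier spots (192 to 459 of 43020 on an array) were left out, spots of a probe were averaged, and log2 of the processed intensity was taken minus the array's 75th percentile. No spot was saturated. Genes were named through RefSeq accessions for 26412 probes, by symbol or synonym for 3854 and 735, and by the file's own name for 8428. Probes well above background on all 3 arrays of a genotype were tested, 24415 in all, with limma 3.58.1 in R 4.3.3 (lmFit, eBayes, Benjamini-Hochberg adjustment over all of them, threshold 0.05), which was tested on simulated data. Array number limits the precision.

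Samples were grouped by the labelled genotype. The genes and lists described were chosen with earlier results of these data known. List genes named are those with the 2 smallest unadjusted p in their list, since no gene passed, and genes like Txnip are the 5 with the highest Pearson r. Insl3 and Hbb-b1 had no probe. The replicate numbers were not used to pair the samples in the main analysis. The correlation of deviations between same-numbered samples was -0.34, 0.32 and -0.05, which cannot settle whether any were paired, with 3 samples of a genotype. The 17 alternatives covered background correction, scaling, the background filter, the slide as a block, array weights, a replicate block and leaving out each array. Figures were drawn with matplotlib 3.10.9.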

Additional observations from a re-analysis of the deposited data

How the results depend on the processing

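Both Txnip probes, Arrdc1, Arrdc3, Arrdc4 and Mlx kept their direction under all 17 alternatives. Not all of these could change a direction: the changes of background filter and the replicate block return the main difference for these probes. The fixed slide block and the shared slide return the same difference as each other. No probe of the 8 genes and no listed gene passed the adjusted threshold under any alternative. The count of probes that passed, 1 in the main analysis, was 6 with array weights, 0 with no filter on background, with the slide as a fixed block and within the shared slide, and 0 to 19 when 1 array was left out, with 19 reached without wild-type replicate 3. With the replicate number as a block it was 0, and 1023 probes had an unadjusted p under 0.05. That block could not change the difference of a probe measured on all 6 arrays, because each replicate number holds 1 array of each genotype. Some small differences reversed. Mlxip was 0.0024 and Nedd4l 0.095 with the slide as a fixed block and within the shared slide, which are the same estimate against wild-type replicate 3. With 1 array left out, Mlxip ran from -0.052 to 0.022 (0.0074 without wild-type replicate 1). The Arrdc2 probes were -0.19 and -0.21 with array weights, and with 1 array left out they ran from -0.070 to 0.21 and from -0.13 to 0.16, below 0 without knockout replicate 2 (-0.021 and -0.045) or wild-type replicate 3. Mlxipl ran from -0.47 to 0.10, above 0 without knockout replicate 1 (0.077), knockout replicate 3 (0.037) or wild-type replicate 3 (0.10). The cause of these reversals was not tested. Selenbp1 stayed between -2.84 and -2.64 but missed the adjusted threshold under 8 alternatives. With 3 arrays of a genotype, differences of the size seen at the relatives could not be told from the spread between arrays. Signals near background, as at the dimmer Mlxip probe, Sag and Slc2a9, rest on fewer arrays.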
